A study of Mus musculus with 11 samples.

Results

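The genes described here encode voltage-gated and TRP ion channels and their subunits, in GFP-sorted β-cells with and without *Raptor*. They were chosen by symbol, as protein-coding genes whose names begin with Kcn (K+ channels), Cacna, Cacnb or Cacng (Ca2+ channels), Scn and a digit (Na+ channels) or Trpc, Trpm or Trpv and a digit, together with *Abcc8* and *Abcc9*, the sulfonylurea receptors. The table held 159 such genes among 34728 entries, 478 of which have no symbol here. Of these, 43 reached an FPKM (fragments per kilobase of transcript scaled to the mapped fragments of the library) of 1 in 3 or more libraries out of 11 and were tested, among 11251 genes tested in all. The other 116 lay below that minimum, 8 of them at 0 in every library and 15 of them reaching an FPKM of 1 in 1 or 2 libraries. One of the 43, *Trpc4ap*, matches the pattern of the symbol but encodes a protein that associates with TRPC4 and is not itself a channel.

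All mice carried RIP-Cre (Cre driven by the rat insulin promoter) and a GFP reporter at *Rosa26*, and all were 8 weeks old, on a mixed C57BL/6 x 129SV background. The 3 WT libraries came from littermates with intact *Raptor*. The 4 diabetic libraries came from βRapKOGFP mice, which lacked *Raptor* in cells that had expressed the Cre, without an insulin pellet. The 4 euglycemic libraries came from βRapKOGFP mice that had carried an insulin pellet for 4 weeks. Raptor is the defining subunit of the mTORC1 kinase complex. The insulin promoter marks cells that once expressed insulin, so the gate did not require a cell to be a β-cell at the time of the sort. The labels do not say whether replicates were separate mice, and p-values therefore measure the spread between these libraries. In bulk RNA, fewer cells of a type and less RNA per cell cannot be told apart. Sequencing depth, inferred from the step size of low values, was 9506156 to 16659222 fragments per library, at which 1 fragment on 1 kilobase equals 0.0600 to 0.105 FPKM.

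In a β-cell, ATP made from glucose closes the KATP channel, a complex of the pore Kir6.2 (*Kcnj11*) and the sulfonylurea receptor SUR1 (*Abcc8*), and the membrane depolarises. Voltage-gated Na+ and Ca2+ channels then open, and the entry of Ca2+ triggers exocytosis of insulin. Voltage-gated and Ca2+-activated K+ channels repolarise the membrane, two-pore-domain K+ channels set a background K+ conductance, and the Ca2+-activated cation channels TRPM4 and TRPM5 add a depolarising current.

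The bases upstream of the annotated start are shown for the 3 channel genes with the lowest p in diabetic against WT, *Trpm5*, *Kcnk10* and *Kcnj12*. They are 150 bases each, 5′ to 3′ in the direction of the gene, from RefSeq on GRCm38.p6, and capitals mark a TTGCNNAA motif (C/EBP type). The stretches are chr7:143094643-143094792 (minus strand), chr12:98575128-98575277 (minus strand, the stretch before 1 of the RefSeq starts of *Kcnk10*) and chr11:61065654-61065803 (plus strand, before a start inside the annotated *Kcnj12* gene). None of them overlaps an annotated exon.
Trpm5: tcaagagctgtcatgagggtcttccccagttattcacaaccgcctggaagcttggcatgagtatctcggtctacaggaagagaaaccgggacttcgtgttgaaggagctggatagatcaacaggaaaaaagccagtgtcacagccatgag
Kcnk10: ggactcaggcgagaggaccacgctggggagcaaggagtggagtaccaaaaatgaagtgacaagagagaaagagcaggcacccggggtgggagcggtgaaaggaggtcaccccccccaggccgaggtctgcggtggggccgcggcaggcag
Kcnj12: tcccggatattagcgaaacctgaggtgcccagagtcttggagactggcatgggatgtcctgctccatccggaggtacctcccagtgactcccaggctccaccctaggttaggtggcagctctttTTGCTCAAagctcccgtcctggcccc
RefSeq promoters were found for 30 of the 43 genes, in 42 windows of 250 bases before the start, and both strands were searched. TTGCNNAA was in 2.38% of these windows, in 7.24% of the windows of all genes tested and in 9.56% of all RefSeq windows. TGCTGA (a MAF half-site) was in 16.7%, 12.3% and 16.1%, and TGACG (a CRE half-site) in 11.9%, 28.3% and 17.8%. CACGTG, the E-box type, was in 2.38%, 8.53% and 6.02%, and TATAAA, the TATA box, in 2.38%, 6.08% and 12.4%. TAATTA and GTTAAT were in none of the channel windows, against 2.52% and 3.98% of the windows of all genes tested. These are matches of letters in a window and not sites of binding.

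The 43 genes spanned a wide range of levels, and most of the summed FPKM came from a few of them. *Abcc8* had the highest mean over all libraries, 249 FPKM, and alone made up 36.4% to 51.1% of the summed channel FPKM of a library. The next highest means were those of *Kcnk16*, which encodes the two-pore K+ channel TALK-1, at 88.7 FPKM, and of *Kcnk1*, which encodes TWIK-1, at 49.0 FPKM. Their ranges over libraries overlapped, and *Kcnk1* lay above *Kcnk16* in WT replicate 1 and in euglycemic replicates 2 and 3. *Kcnj11*, *Kcnh6*, *Kcnk12*, *Cacnb3*, *Trpc4ap* and *Kcnip1* followed with means between 11.4 and 17.1 FPKM, and their ranges over libraries overlapped, so that no order among them can be read. These were the 9 genes with a mean of at least 10 FPKM.

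**Figure D1:**
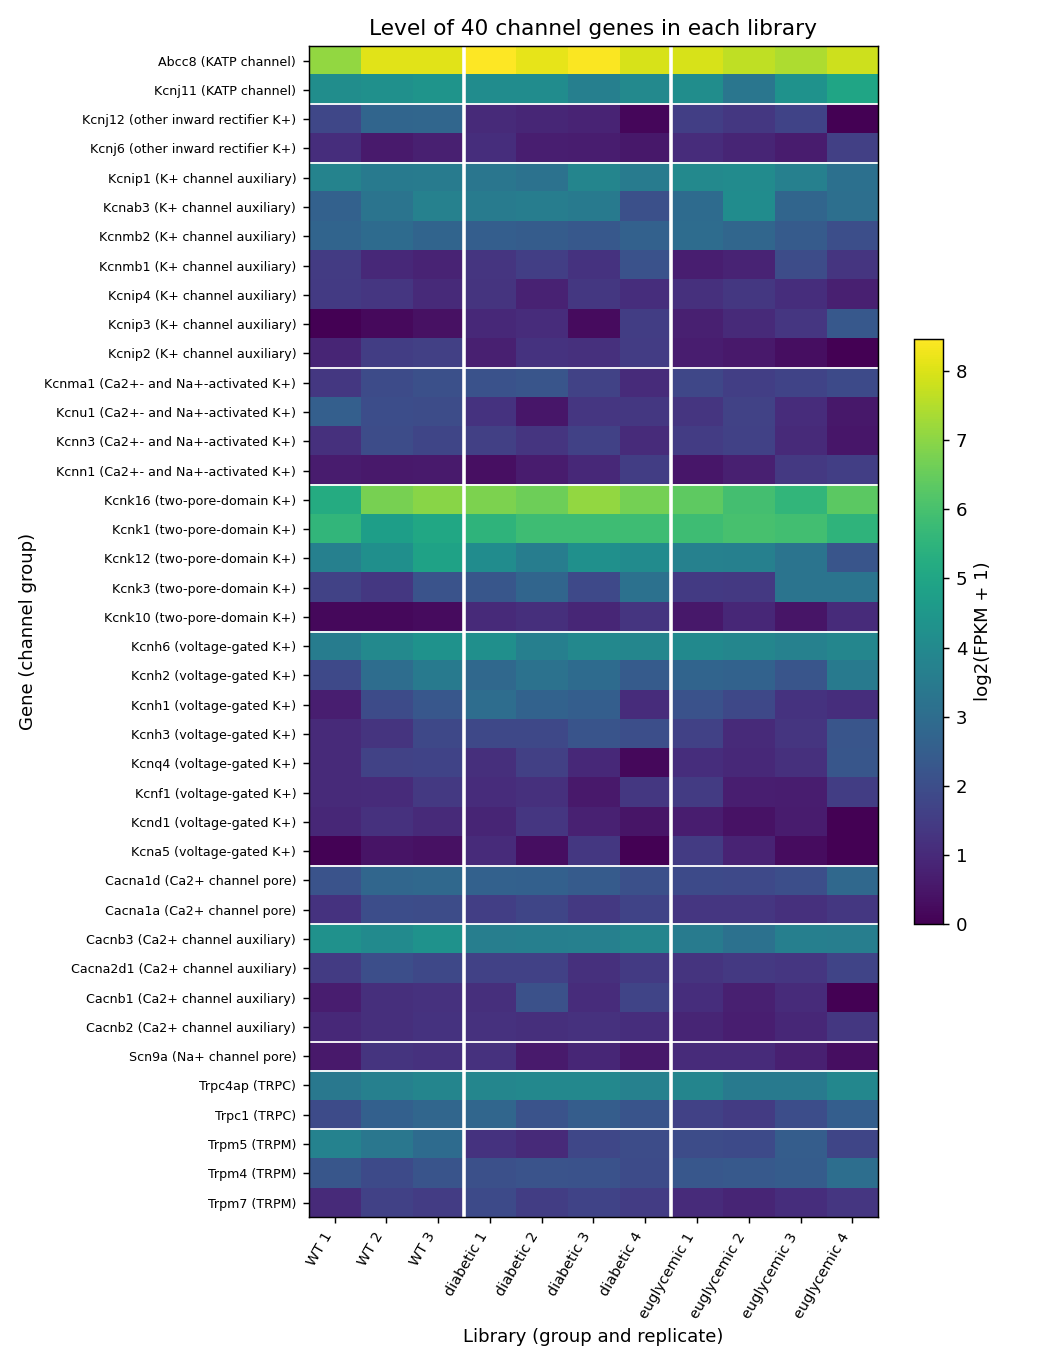
Level of 40 of the 43 channel genes (rows, in channel groups) in each of the 11 libraries (columns), as log2(FPKM + 1) by colour. *Abcc8* is the brightest row, and *Kcnk16* and *Kcnk1* have the next highest means, with no fixed order between them. *Trpm5* and *Kcnj12* are darker in the 8 mutant columns than in the 3 WT columns.

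Some channels that are well known in β-cells were below the minimum. The L-type Ca2+ channel pore *Cacna1c* had a mean of 0.402 FPKM and did not reach 1 in any library. *Kcnq1*, a delayed rectifier, had a mean of 0.450 FPKM, and *Scn3a*, a voltage-gated Na+ channel pore, had a mean of 0.643 FPKM. *Kcnb2*, *Kcnj3*, *Trpm2*, *Trpv2* and *Trpv4* were also below the minimum, with means of 0.0412 to 0.347 FPKM, and 0 of the 6 TRPV genes passed it.

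Before the comparisons, 2 libraries need to be named. WT replicate 1 and euglycemic replicate 4 had the lowest library weights that limma estimated over all genes tested, 0.284 and 0.229, against 0.705 to 2.87 in the other libraries. The median deviation of the 43 channel genes from their own means was -0.23 (log2) in WT replicate 1 and 0.17 and 0.29 in the other WT libraries. Exon length here means the merged bases of all annotated exons of a gene. Genes in the longest quartile of it, among all genes tested, moved in the same way as the channel genes. They lay at -0.17 in WT replicate 1 and at 0.09 and 0.13 in the other WT libraries. The shortest quartile moved in the opposite way, at 0.28 against -0.19 and -0.16. Euglycemic replicates 1 to 3 had a channel median of -0.21 to -0.07, and the diabetic libraries of -0.04 to 0.17. The median exon length was 4845 bases for the 43 channel genes and 4025.5 bases for all genes tested. The part of exon length and of these libraries in the results was not tested, apart from the fits without them that are given below. *Rptor*, the deleted gene, lay between 0.948 and 1.79 FPKM in WT, 0.485 and 0.937 in diabetic, and 0.423 and 0.623 in euglycemic mice.

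**Figure D2:**
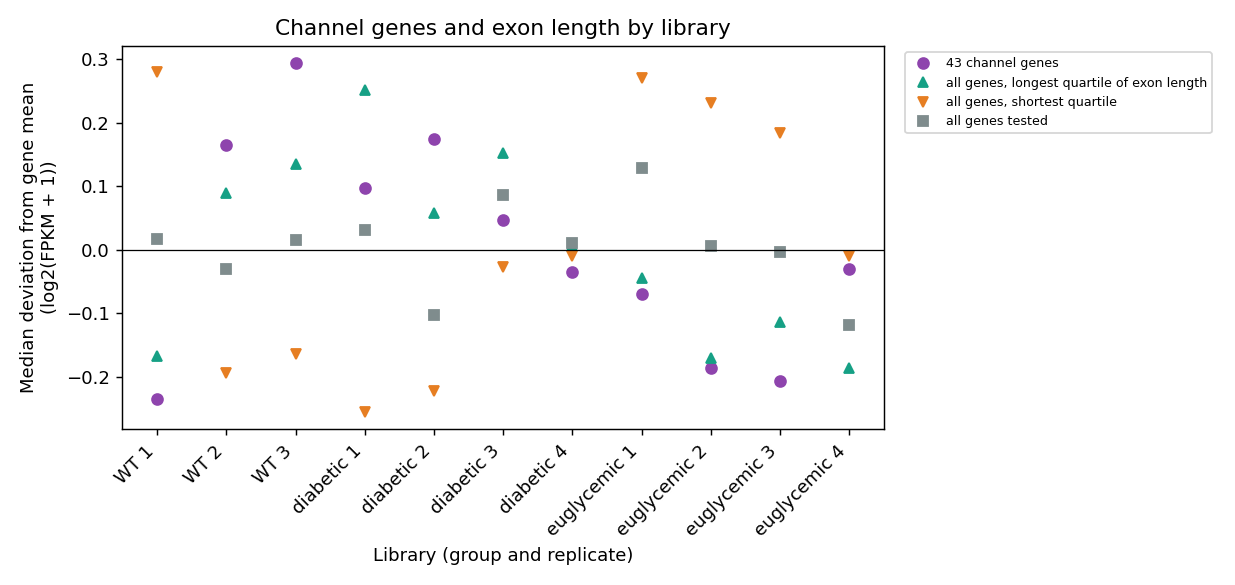
Median deviation from each gene's mean over the 11 libraries, in log2(FPKM + 1), for the channel genes, for the longest and shortest quartile of exon length and for all genes tested. In WT replicate 1 and euglycemic replicates 1 to 3 the channel genes and the long genes lie below 0 and the short genes above it.

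The first question was which channel genes differ between diabetic βRapKOGFP and WT β-cells. One of the 43, *Trpm5*, passed the test, and it fell. The test was limma on log2(FPKM + 1) with Benjamini-Hochberg adjustment over all genes tested, and a gene was called if the adjusted p was 0.05 or less and the change 1.5-fold or more, which 0.969% of all genes tested met. At an unadjusted p of at most 0.05, 6 of the 43 differed, against 11.9% of all genes tested. Of these 4 were lower and 2 higher, against 5.74% and 6.15% of all genes. The median log2 change of the 43 was -0.04, against 0.01 for all genes tested, and 17 of the 43 lay above 0, against 50.7% of all genes. The counts include 4 genes that reached the minimum in mutant libraries only (*Kcnk10*, *Kcnip3* and, named after their values were seen, *Kcnn1* and *Kcna5*), which give no support to a difference. In 7 of the 43 the diabetic and WT libraries did not overlap, against 13.5% of all genes.

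*Trpm5* (ENSMUSG00000009246, chromosome 7, 143069153 to 143094642 of GRCm38, minus strand) encodes a cation channel that Ca2+ opens, known from taste cells and β-cells. Its FPKM was 12.5, 9.22 and 6.77 in WT replicates 1 to 3. It was 1.37, 1.01, 2.52 and 2.92 in diabetic replicates 1 to 4, and 2.92, 2.74, 4.69 and 2.39 in euglycemic replicates 1 to 4. All 8 mutant libraries lay under the WT range, and the diabetic and euglycemic libraries overlapped. It fell by 1.84 on the log2(FPKM + 1) scale in diabetic against WT (SE 0.282, adjusted p = 0.00915, limma), with means of 1.96 ± 0.912 (SD, n = 4) and 9.49 ± 2.86 (SD, n = 3). In euglycemic against WT its log2 change was -1.32 (SE 0.282, adjusted p = 0.0677), with a mean of 3.19 ± 1.03 (SD, n = 4), and it was not called. With both mutant groups together against WT it fell by 1.58 (SE 0.250, adjusted p = 0.0109), the only channel gene called there, where 1.05% of all genes tested were called. The difference between diabetic and euglycemic libraries was -0.53 (adjusted p = 0.273), so the 2 mutant groups were not shown to differ. The call in diabetic against WT was lost without WT replicate 1 (adjusted p = 0.0582), without WT replicate 2 (0.0559) and with no filter on low values (0.0631), and its adjusted p ranged from 0.00132 to 0.0631 over the alternatives, with log2 changes of -2.29 to -1.65. The call for both mutant groups together was lost without WT replicate 2 (adjusted p = 0.0703) and with no filter (0.0571), with a range of 0.000707 to 0.0703. In euglycemic against WT *Trpm5* was called with median of ratios scaling (adjusted p = 0.0402) and with library weights (0.00349), and its adjusted p ranged from 0.00349 to 0.277, with log2 changes of -1.55 to -1.03. Exons of *Tssc4* on the opposite strand share 3.44% of the exon bases of *Trpm5*, and no strand setting is stated for the library.

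**Figure D3:**
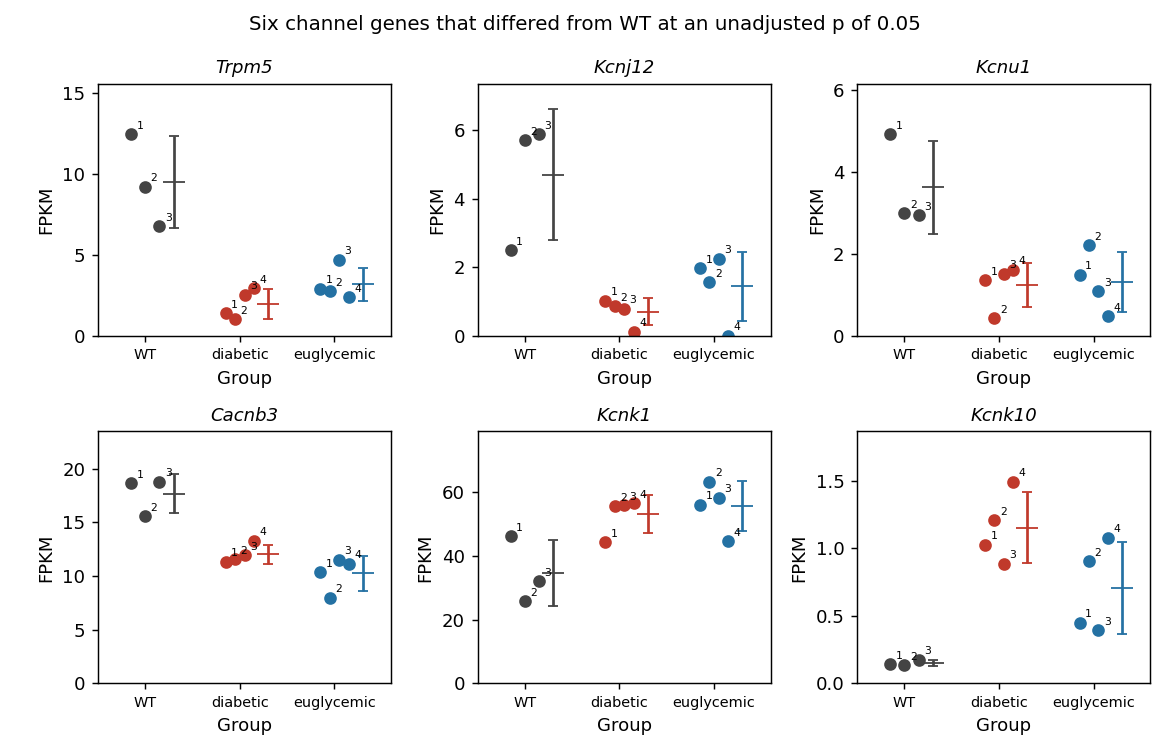
FPKM of *Trpm5*, *Kcnj12*, *Kcnu1*, *Cacnb3*, *Kcnk1* and *Kcnk10* in each library (points numbered by replicate) by group, with the group mean and SD beside the points. The 8 mutant libraries lie below the 3 WT libraries for *Trpm5*, *Kcnj12*, *Kcnu1* and *Cacnb3*, above them for *Kcnk10*, and overlap them for *Kcnk1*.

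The mutant libraries also held more RNA of marker genes of other endocrine cells. Bulk RNA cannot tell whether it came from other cells in the sort or from β-lineage cells that express these genes. The paper reports GFP+ cells that stain for glucagon in the mutant mice. The 8 α-cell markers summed to 1086 to 2491 FPKM in WT, 4160 to 14968 in diabetic and 4965 to 23935 in the euglycemic libraries, with 5, 7 and 7 of them reaching an FPKM of 1 in some library of the group. The 4 δ-cell markers summed to 1176 to 2515, 4942 to 12262 and 4864 to 13953 FPKM, with 3, 4 and 3 of them at that level, and both PP-cell markers to 513 to 1107, 3674 to 12980 and 4984 to 14238 FPKM. The 11 acinar markers summed to 2.84 to 51.4 FPKM in WT, 3.32 to 2626 in diabetic and 3.08 to 5073 in the euglycemic libraries, with 3 of the 8 mutant libraries within the WT range. The 10 β-cell markers were all detected and summed to 157613 to 191511, 138230 to 206534 and 117287 to 202220 FPKM, of which *Ins1*, *Ins2* and *Iapp* made up 98.5% to 99.7%. Within that list *Slc30a8*, the zinc transporter ZnT8 of insulin granules, had 642 to 712 FPKM in WT, 166 to 251 in diabetic and 231 to 339 in the euglycemic libraries. It fell by 1.78 and 1.31 on the log2 scale (adjusted p = 0.00270 and 0.0195, limma). *Slc2a2*, the glucose transporter GLUT2, had 69.7 to 87.0, 13.1 to 21.4 and 14.0 to 29.6 FPKM. Both lay below WT in all 8 mutant libraries. The other 8 β-cell markers were not called in either comparison with WT. Their log2 changes ran from -0.89 (*Ucn3*) to 0.14 (*Ins2*) in diabetic, with *Mafa* at 0.05, and from -1.10 (*Mafa*) to 0.52 (*Iapp*) in the euglycemic libraries. Of these 8, *Pdx1* and *Nkx6-1* lay below WT in all 4 diabetic libraries, with log2 changes of -0.88 and -0.47, and overlapped WT in the euglycemic libraries. The 8 endothelial markers summed to 8.81 to 52.7 FPKM in the diabetic libraries, above all WT (1.68 to 4.11) and euglycemic libraries (1.40 to 4.61). The 6 stellate and fibroblast markers summed to 0.563 to 18.6 FPKM in the diabetic libraries, against at most 0.496 in WT and 0.801 in the euglycemic libraries. The 7 immune markers summed to 9.34 to 23.3, 0.793 to 93.5 and 1.24 to 34.6 FPKM, with mutant libraries both below and above the WT range and *Cd3e* at 0 in all. The 6 duct markers summed to 58.1 to 71.8, 57.8 to 88.4 and 97.1 to 133 FPKM, and the 6 Schwann and neuronal markers to 56.0 to 73.2, 40.7 to 76.3 and 42.3 to 82.7. The part of these cell types, or of β-lineage cells that express their markers, in the channel results was not tested.

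In euglycemic against WT, 0 of the 43 channel genes were called by limma, against 0.551% of all genes tested. At an unadjusted p of at most 0.05, 10 of the 43 differed, against 13.9% of all genes. Of these 7 were lower and 3 higher, against 6.52% and 7.33% of all genes. The groups did not overlap for 9 of the 43, against 10.9% of all genes, with 6 lower and 3 higher, against 5.02% and 5.91%. By either rule the 3 higher genes included *Kcnip3* and *Kcnk10*, which reached the minimum in mutant libraries only and give no support to a difference. The median log2 change of the 43 was -0.15, against -0.01 for all genes, and 13 of the 43 lay above 0, against 49.0% of all genes. Both comparisons share the WT libraries, so likeness between them is not separate evidence.

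**Figure D4:**
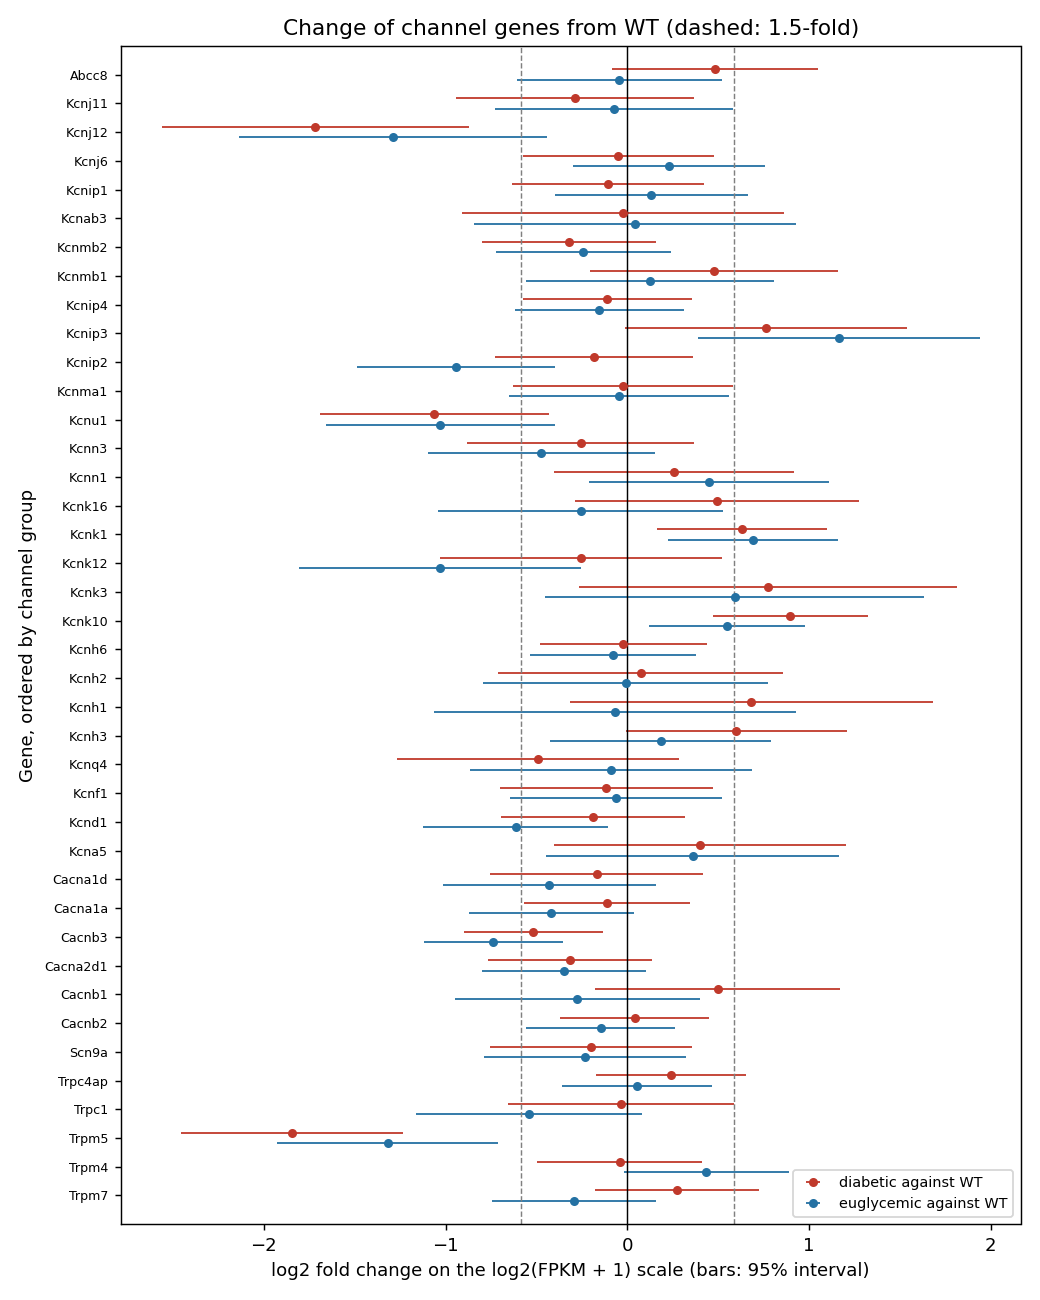
log2 fold change of 40 of the 43 channel genes against WT on the log2(FPKM + 1) scale, with 95% intervals, for diabetic (red) and euglycemic (blue) libraries. *Trpm5* is the only gene called, in diabetic against WT, and the intervals of most genes cross 0.

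Among KATP channel genes, neither subunit was called in any comparison. *Abcc8* (chromosome 7, 46104523 to 46180033, minus strand) had 136, 270 and 272 FPKM in WT replicates 1 to 3. It had 352, 283, 336 and 246 in diabetic and 248, 200, 171 and 223 in euglycemic replicates 1 to 4. WT replicate 1 was the lowest of all 11 libraries, and the groups overlapped. The log2 change of *Abcc8* was 0.48 ± 0.565 (95% interval) in diabetic and -0.04 ± 0.565 in euglycemic against WT (adjusted p = 0.504 and 0.957), and it was 0.15 in diabetic against WT without WT replicate 1. *Kcnj11* (chromosome 7, 46093953 to 46100764, minus strand) lies beside it, and had 16.7, 17.9 and 19.8 FPKM in WT. It had 16.5, 16.2, 11.6 and 14.9 in diabetic and 16.7, 8.90, 18.9 and 30.3 in euglycemic replicates 1 to 4. The diabetic libraries lay just below the WT libraries, and the euglycemic libraries spanned both. Its log2 change was -0.29 ± 0.655 (95% interval) and -0.07 ± 0.655, with adjusted p = 0.783 and 0.935. The ratio of *Abcc8* to *Kcnj11* FPKM ranged from 7.37 in euglycemic replicate 4 to 29.0 in diabetic replicate 3. The other KATP-type genes, *Kcnj8* and *Abcc9*, were below the minimum.

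**Figure D5:**
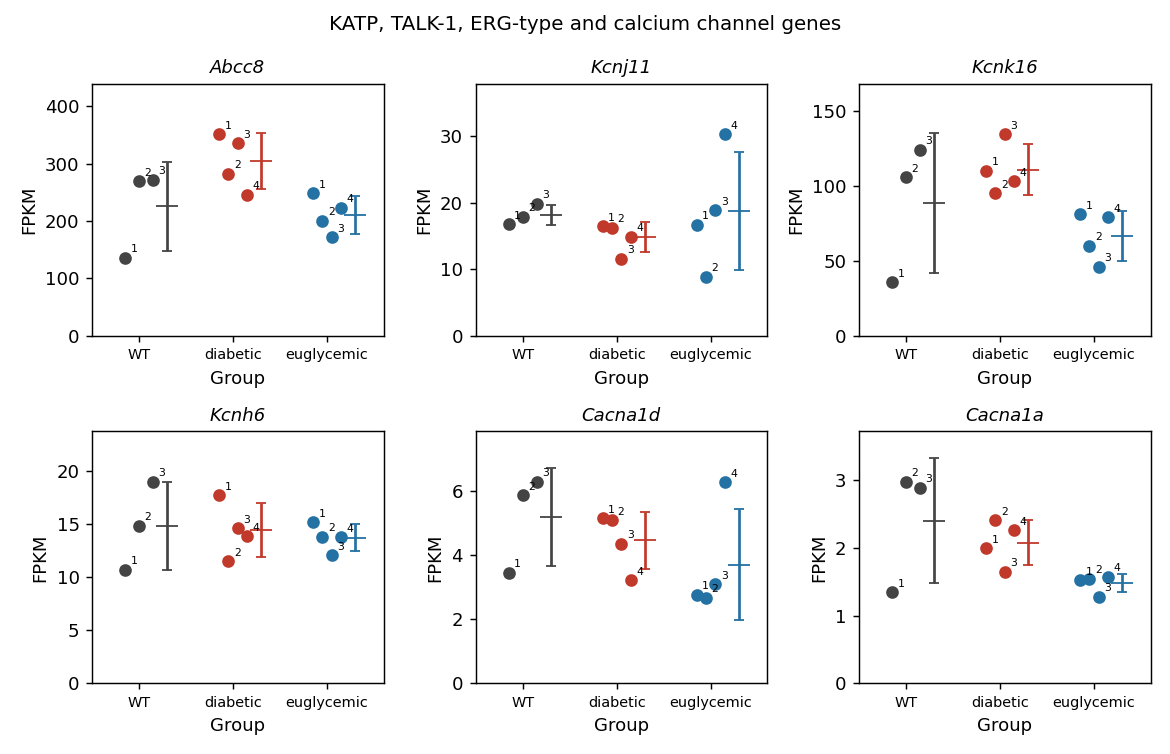
FPKM of *Abcc8*, *Kcnj11*, *Kcnk16*, *Kcnh6*, *Cacna1d* and *Cacna1a* in each library (points numbered by replicate) by group, with the group mean and SD. WT replicate 1 is the lowest WT library for all 6 genes.

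Of 13 other inward rectifier genes, 2 were tested and 0 were called. *Kcnj12*, which encodes a strong inward rectifier, averaged 4.70 ± 1.91 FPKM (SD, n = 3) in WT, and 0.697 ± 0.397 and 1.44 ± 1.002 (SD, n = 4 each) in diabetic and euglycemic mice. No mutant library overlapped WT, and euglycemic replicate 4 is listed at 0. The log2 changes were -1.72 (SE 0.391, adjusted p = 0.0634) and -1.29 (SE 0.391, adjusted p = 0.178). In diabetic against WT *Kcnj12* was called in a fit of those groups alone (adjusted p = 0.0192), with library weights (0.000587) and without euglycemic replicate 4 (0.00817), and its adjusted p ranged from 0.000587 to 0.286 over the alternatives. *Kcnj6*, a subunit of G-protein-gated inward rectifiers, had a log2 change of -0.05 and 0.23 from a WT mean of 0.779 FPKM.

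Of 14 two-pore-domain K+ channel genes, 5 were tested, and the test called 0 of them. *Kcnk10* (TREK-2) was low in WT, at 0.150 ± 0.0217 FPKM (SD, n = 3), and had 1.15 ± 0.262 in diabetic and 0.707 ± 0.337 in euglycemic libraries (SD, n = 4 each). All 8 mutant libraries lay above all WT libraries, with log2 changes of 0.90 (SE 0.198, adjusted p = 0.0548) and 0.55 (SE 0.198, adjusted p = 0.250). It reached an FPKM of 1 in 4 libraries, all of them mutant, so it entered the test only through the groups in which it is high. *Kcnk1* had 34.8 ± 10.4 FPKM in WT, 53.2 ± 5.88 in diabetic and 55.6 ± 7.88 in the euglycemic libraries, with log2 changes of 0.63 and 0.69 (adjusted p = 0.248 and 0.192) and WT replicate 1 within the mutant range. Exons on the opposite strand share 8.01% of its exon bases. *Kcnk16* had 88.6 ± 46.8, 111 ± 17.0 and 66.7 ± 16.7 FPKM in WT, diabetic and euglycemic libraries, and WT replicate 1, at 35.6, lay far below the other WT libraries, at 106 and 124. Its log2 change against WT was 0.49 in diabetic and -0.26 in euglycemic libraries (adjusted p = 0.649 and 0.779), and the change in diabetic was -0.061 without WT replicate 1. *Kcnk12* (THIK-2) had log2 changes of -0.25 and -1.03 (adjusted p = 0.852 and 0.239) from a WT mean of 19.3 FPKM, and *Kcnk3* (TASK-1) of 0.77 and 0.59 (adjusted p = 0.579 and 0.605) from a WT mean of 2.44 FPKM. For *Kcnk3* the euglycemic value was 0.28 without euglycemic replicate 3 and 0.91 without euglycemic replicate 2.

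Voltage-gated K+ channel pores made up 40 of the genes, of which 10 were tested and 0 called. *Kcnh6*, an ERG-type channel, was at 14.9 ± 4.14, 14.4 ± 2.56 and 13.7 ± 1.26 FPKM, with 95% intervals of -0.02 ± 0.458 and -0.08 ± 0.458 around its log2 changes.

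Of 8 Ca2+- and Na+-activated K+ channel genes, 4 were tested and 0 called. *Kcnu1*, which encodes a pH-sensitive K+ channel known from sperm, had 3.62 ± 1.13 FPKM in WT, 1.23 ± 0.541 in diabetic and 1.31 ± 0.728 in the euglycemic libraries. Again the WT range lay above all 8 mutant libraries, and the log2 changes were -1.06 and -1.03 (SE 0.292 each, adjusted p = 0.133 and 0.158). *Kcnma1*, the pore of the BK channel, had log2 changes of -0.02 ± 0.605 and -0.05 ± 0.605 (95% intervals). *Kcnn3*, a small-conductance channel, had log2 changes of -0.26 and -0.47 (adjusted p = 0.800 and 0.480). Among the K+ channel auxiliary subunits, 7 of 17 were tested and 0 called. *Kcnip3*, a Ca2+-binding subunit of A-type channels, had 0.152 ± 0.145 FPKM in WT, 1.04 ± 0.705 in diabetic and 1.82 ± 1.53 in the euglycemic libraries (log2 changes 0.76 and 1.16, adjusted p = 0.428 and 0.186), with WT replicate 1 listed at 0. It too passed the minimum only through mutant libraries, 5 of them.

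Among the Ca2+ channel genes, 2 of 10 pores and 4 of 16 auxiliary subunits were tested, and 0 were called. *Cacnb3*, a β subunit of Ca2+ channels, had 17.7 ± 1.80 FPKM (SD, n = 3) in WT, 12.03 ± 0.877 in diabetic and 10.3 ± 1.61 in the euglycemic libraries (SD, n = 4 each). All mutant libraries lay below all WT libraries, and the log2 changes were -0.52 and -0.74 (SE 0.177 each, adjusted p = 0.248 and 0.110). The pores *Cacna1d* (L-type) and *Cacna1a* (P/Q-type) had log2 changes of -0.17 and -0.11 in diabetic, and -0.43 and -0.42 in euglycemic libraries (adjusted p = 0.868, 0.886, 0.491 and 0.402). Without WT replicate 1 these changes were -0.39 and -0.36 in diabetic, and -0.65 and -0.67 in the euglycemic libraries. *Cacna2d1* was at -0.32 and -0.35, and *Cacnb2* at 0.04 and -0.15, on the same scale.

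For Na+ channels, 1 of 10 pores was tested, and it was not called. The pore *Scn9a* had log2 changes of -0.20 and -0.23 from a WT mean of 1.07 FPKM. Of the TRP genes, 3 of 8 TRPM and 2 of 9 TRPC were tested. *Trpm4*, the closest relative of *Trpm5*, had log2 changes of -0.04 and 0.43 (adjusted p = 0.965 and 0.383) from a WT mean of 3.36 ± 0.578 FPKM. *Trpc1* had log2 changes of -0.03 and -0.54 (adjusted p = 0.980 and 0.424).

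Diabetic and euglycemic βRapKOGFP libraries were compared to ask whether the channel genes differ between mutant mice without and with the insulin pellet. Pellet and glycemia changed together, so their parts cannot be told apart. None of the 43 was called by limma (0 genes), where 0.00889% of all genes tested were, and 7 differed at an unadjusted p of at most 0.05, against 20.6% of all genes. Of these 6 were higher in diabetic mice, against 10.6% of all genes. *Kcnk16* was 0.75 higher (log2) in diabetic than in euglycemic libraries (adjusted p = 0.228) and *Abcc8* was 0.53 higher (adjusted p = 0.240), while *Trpm4* differed by -0.48 (adjusted p = 0.202). The others were *Kcnk12* and, named after their values were seen, *Kcnip2*, *Trpm7* and *Cacnb1*. For 29 of the 43 the log2 difference lay above 0, against 50.9% of all genes.

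Leaving out WT replicate 1 and euglycemic replicate 4 together, a choice made after seeing the data, gave more calls. Of 41 channel genes that then passed the minimum, 3 were called in diabetic against WT (*Trpm5*, *Kcnj12* and *Kcnk1*), where 1.13% of all genes were called. In euglycemic against WT, 12 were called, 11 lower and 1 higher, where 10.9% of all genes were called. The lower genes included *Cacna1a*, *Cacna1d*, *Cacnb3*, *Kcnip2*, *Kcnj12*, *Kcnk12*, *Kcnk16* and *Trpc1*, with log2 changes from -1.22 (*Kcnj12*) to -0.68 (*Cacna1a*), and the higher gene was *Kcnk1*, at 1.01. In diabetic against euglycemic libraries 5 were called, among them *Kcnk16*, *Trpc1* and *Trpm7* higher and *Kcnj12* lower, where 8.65% of all genes were called. Without WT replicate 1 alone the euglycemic comparison called *Kcnip2* and *Kcnk1*, where 4.76% of all genes were called, and without euglycemic replicate 4 alone it called 0, where 0.556% were called.

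Other genes that couple glucose to secretion were counted from a list of 58, none of them a member of the channel set, of which 46 passed the minimum. In each of the comparisons with WT, 2 were called, both lower, where 0.969% (diabetic) and 0.551% (euglycemic) of all genes tested were called. *Slc2a2* had log2 changes of -2.06 in diabetic and -1.79 in euglycemic libraries (adjusted p = 0.00254 and 0.00712), and *Gipr*, the receptor of the incretin GIP, of -1.64 and -1.76 (adjusted p = 0.0327 and 0.0283). In diabetic against euglycemic libraries 0 of the 46 were called by limma, and 15 differed at an unadjusted p of at most 0.05, against 20.6% of all genes. Of these 13 were higher in diabetic, against 10.6% of all genes. The median log2 change of the 46 was 0.06 in diabetic and -0.24 in euglycemic against WT, where the medians of all genes tested were 0.01 and -0.01.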

How the data were processed

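RNA of sorted GFP+ cells was measured in 11 libraries (3 WT, 4 diabetic and 4 euglycemic βRapKOGFP), grouped by the labels. The authors deposited FPKM per gene and library, with no totals of fragments. The methods of the study give Tophat and Cufflinks on mm10, while the submitters' processing notes list HISAT2 2.0.4, StringTie 1.3.0 and edgeR, and which made the table is not settled here. Columns headed KI were read as the insulin-treated mice. Of 34745 entries, 34267 were matched to a symbol, 478 were not, and 17 repeated symbols were left out by keeping the entry with the highest mean.

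Levels were fitted as log2(FPKM + 1), which understates the change of low genes, with limma 3.58.1 (R 4.3.3; lmFit, then trended eBayes, all 11 libraries in one fit, Benjamini-Hochberg over 11251 genes). The code of the fit was also run on simulated data, and the outcome is not reported here. Calls needed an adjusted p of 0.05 or less and a change of 1.5-fold. Depth was inferred from 4926 single-exon genes of at least 500 bases, in which 77.1% to 89.2% of low values lay within 0.02 of a whole step of up to 20 fragments. This is not a total given by the authors. Gene positions are from GENCODE vM21 and promoters from RefSeq. Python 3.11.15, numpy 2.4.6, pandas 2.3.3 and matplotlib 3.10.9 were used.

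The genes named are the channel genes called, those of a list of β-cell channels that passed the minimum, and in each comparison with WT the 5 with the largest log2 change among those with an unadjusted p of at most 0.05. A few named in the counts were chosen after their values were seen, and the text says so where they appear. The members and lists were chosen with earlier results of these data known. The alternatives were unadjusted p, no fold criterion, the filter on low values, the pseudocount, TPM and median of ratios scaling, library weights, no trend, a fit of the 2 groups alone, a replicate block and leaving out each library. Leaving out 2 libraries together was chosen after seeing the data. Single-gene results of some channel genes that the counts include are not reported here.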

Additional observations from a re-analysis of the deposited data

Results flagged for a closer look

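Of 46 groups of 4 libraries (the diabetic and euglycemic values of the 23 named genes), 4 held a library far from the others by Dixon's test, and chance gives about 1 in 20. In euglycemic replicate 4, *Cacna1d* had 6.28 FPKM, against 2.68 to 3.10 in the other euglycemic libraries, and *Trpm4* had 7.36 FPKM, against 3.95 to 4.51. *Cacna1a* had 1.28 FPKM in euglycemic replicate 3, against 1.52 to 1.57 in the others. In the diabetic group, *Kcnk1* was at 44.4 FPKM in replicate 1, and replicates 2 to 4 were at 55.6 to 56.6.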

How the results depend on the processing

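The counts of channel genes called, 1 in diabetic against WT, 0 in euglycemic against WT, 1 with both mutant groups against WT and 0 in diabetic against euglycemic, depended on the setting. With the unadjusted p and the same fold they were 5, 9, 7 and 4 of 43, where 8.26%, 9.92% and 6.92% of all genes were called in the comparisons with WT and 1355 of 11251 genes in diabetic against euglycemic. With library weights they were 5, 16, 9 and 4 of 43, against 4.90%, 20.3%, 9.92% and 10.8% of all genes. Without WT replicate 1 and euglycemic replicate 4 together they were 3, 12, 5 and 5 of 41, against 1.13%, 10.9%, 3.28% and 8.65%. With no filter on low values they were 0 of 151 in diabetic and 0 of 151 with both mutant groups against WT (0.0803% and 0.0839% of all genes), and on the TPM scale 2 of 61 and 2 of 61 (0.565% and 0.726%), *Trpm5* and *Kcnk10*. With median of ratios the euglycemic count was 1 of 45 (*Trpm5*, 0.648% of all genes). The diabetic count was 2 of 43 in a fit of those groups alone (*Trpm5* and *Kcnj12*, 1.32%) and with no trend (*Trpm5* and *Kcnk10*, 0.995%). Leaving out each library in turn gave 0 to 3, 0 to 2 and 0 to 3 calls in the comparisons with WT and 0 in diabetic against euglycemic. The diabetic count was 0 without WT replicate 1 (0.304% of all genes) or 2 (0.206%) and 3 without euglycemic replicate 4 (*Trpm5*, *Kcnj12* and *Kcnk10*, 1.88%), which is in neither group compared. The euglycemic count was 2 without WT replicate 1 (4.76%). The count for both groups was 0 without WT replicate 2 (0.260%), 3 without WT replicate 1 (*Trpm5*, *Kcnj12* and *Kcnk1*, 1.23%) and 2 without euglycemic replicate 4 (*Trpm5* and *Kcnj12*, 1.61%). Without euglycemic replicate 4, the log2 changes of *Kcnj12* and *Kcnk10* in diabetic against WT stayed at -1.72 and 0.90. Their SE, which the fit takes from the spread in all groups, fell from 0.391 to 0.271 and from 0.198 to 0.178. *Kcnk10*, counted in some of these settings, passed the FPKM minimum through mutant libraries only. The cause of the other moves was not tested.

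Same-numbered replicates did not deviate together on average (mean correlation of deviations -0.132 over 10 pairs, against 0.0433 over 30 pairs with different numbers). With 10 pairs from the same 11 libraries, this cannot decide whether the numbers pair the libraries. With the replicate block the counts of calls were 1, 0, 1 and 0 of 43, where 0.400%, 0.178%, 0.471% and 0% of all genes were called, and log2 changes turned sign for *Cacnb2* in diabetic (-0.014) and *Kcnma1* in diabetic and euglycemic libraries against WT (0.076 and 0.050). The genes whose sign turned here and below were not called in that comparison with all libraries. In diabetic against WT, the TPM scale gave 0.055 for *Kcnh6*, 0.026 for *Kcnma1*, 0.023 for *Trpm4* and 0.037 for *Trpc1*, and median of ratios gave 0.0037 for *Kcnh6* and 0.00033 for *Kcnma1*. Library weights gave 0.084 for *Kcnj6* and 0.058 for *Trpm4*. Without both doubted libraries it was -0.029 for *Cacnb2*, -0.061 for *Kcnk16* and 0.025 for *Trpm4*. Over the libraries left out in turn, the log2 change in diabetic against WT ran from -0.36 to 0.020 for *Cacna1a*, -0.029 to 0.097 for *Cacnb2*, -0.22 to 0.16 for *Kcnh6*, -0.23 to 0.22 for *Kcnma1*, -0.061 to 0.83 for *Kcnk16*, -0.17 to 0.090 for *Kcnj6*, -0.16 to 0.025 for *Trpm4*, -0.29 to 0.15 for *Trpc1* and -0.55 to 0.058 for *Kcnk12*. In euglycemic against WT it ran from -0.33 to 0.22 for *Kcnj11*, -0.37 to 0.12 for *Abcc8*, -0.28 to 0.11 for *Kcnh6*, -0.26 to 0.087 for *Kcnma1* and -0.81 to 0.077 for *Kcnk16*. Of 57 log2 changes of named genes, 32, of which none was called with all libraries, turned in sign or moved by over 1.5 times when 1 library was left out. Among those that kept their sign, *Kcnn3* ran from -0.49 to -0.091 in diabetic and -0.70 to -0.26 in euglycemic against WT. *Cacna2d1* ran from -0.47 to -0.19 and -0.50 to -0.22, and *Scn9a* from -0.42 to -0.071 and -0.46 to -0.076. *Cacna1d* in diabetic ran from -0.39 to -0.035. In euglycemic libraries *Trpc1* ran from -0.80 to -0.36 and *Trpm4* from 0.26 to 0.52. Depth limits the lowest genes, and exact zeros in single libraries may be failed estimates.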
